A study of Mus musculus with 12 samples.

Results

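The MYC network genes described here are Myc, Mycn, Max, Mxd1, Mxd3, Mxd4, Mxi1, Mnt and Mlx. They were chosen by name, as the probe sets that the platform annotation assigns to these symbols, and they make up 9 of the 19494 genes measured. Each of the 9 had 1 probe set. Expression was measured on single-colour arrays in mouse blood stem and progenitor cells that had rebuilt the marrow of transplanted mice. NFAT5-deficient cells came from Nfat5 fl/fl Vav-Cre donors and wild-type cells from Nfat5 +/+ Vav-Cre donors. Both genotypes therefore carry the Vav-Cre transgene, which drives Cre recombinase in blood-forming cells. Donor marrow of the CD45.2 type was given to irradiated wild-type recipients of the CD45.1 type, and donor-derived cells were sorted 13 weeks later from the LSK gate, which takes cells without lineage markers that carry Sca-1 and Kit. Hematopoietic stem cells (HSC) were CD48-CD150+ and multipotent progenitors (MPP) were CD48+CD150-. The 4 groups are NFAT5-deficient HSC, wild-type HSC, NFAT5-deficient MPP and wild-type MPP, with 3 arrays each. The arrays carry the numbers 64, 70 and 76 for NFAT5-deficient cells and 66, 67 and 75 for wild-type cells, in both populations. Age and sex are not given in the labels. The labels do not say that the arrays of a group come from separate animals, so p-values measure only the spread between these samples, which may be technical. Each sample started from 300 pg of total RNA, and every value below is a log2 intensity or a difference between log2 intensities, in which a difference of 1 is a doubling.

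MYC proteins are basic helix-loop-helix leucine zipper transcription factors that bind the E-box sequence CACGTG only as heterodimers with MAX. At these sites they raise transcription of genes for ribosome production, metabolism and cell division. The MXD proteins, MXI1 and MNT compete for MAX, bind the same sites and recruit the SIN3 and histone deacetylase corepressors. MLX is a MAX-like partner that links some MXD proteins and MNT to the glucose-sensing factors MondoA and ChREBP. In mouse marrow, MYC and MYCN together are needed for stem cell proliferation and survival, and MYC drives the exit of stem cells from the niche into differentiation.

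The arrays were first checked against their labels. The probe set of Nfat5, the targeted gene, lay between 7.62 and 8.76 in NFAT5-deficient HSC, against 9.27 to 9.81 in wild-type HSC. In MPP it lay between 7.63 and 8.40 in NFAT5-deficient cells, against 8.12 to 8.85 in wild-type cells, so the groups overlapped there. The difference was -1.25 in HSC (adjusted p = 0.772 by limma) and -0.66 in MPP (adjusted p = 0.896 by limma). Where this probe set lies with respect to the floxed exons is not given. Of the HSC markers, 5 of 9 measured were higher in HSC, and 6 of 7 MPP and lymphoid priming markers were lower in HSC, at an adjusted p under 0.05 in limma averaged over genotypes, where 0.298% of all genes were called higher and 0.313% lower. A list of 9 mature neutrophil genes stood apart in some arrays. Its mean log2 level was 5.42 to 5.53 in NFAT5-deficient HSC, against 6.88, 7.38 and 5.52 in wild-type HSC arrays 66, 67 and 75. In MPP it was 6.01 to 6.62 in NFAT5-deficient cells, against 6.94, 7.02 and 5.96 in wild-type MPP arrays 66, 67 and 75. Wild-type arrays 66 and 67 thus lay above array 75 in both populations.

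Mycn was the member that separated HSC from MPP. It encodes N-MYC, the MYC family protein that acts beside c-MYC in blood stem cells. Its log2 intensity was 8.75, 9.81 and 8.81 in NFAT5-deficient HSC arrays 64, 70 and 76, against 7.32, 7.90 and 7.33 in the NFAT5-deficient MPP arrays of those numbers. Wild-type HSC arrays 66, 67 and 75 gave 8.77, 8.48 and 8.27, against 7.07, 7.75 and 7.31 in wild-type MPP. All 6 HSC arrays lay above all 6 MPP arrays. In order of group mean, NFAT5-deficient HSC (9.13 ± 0.60) came first, then wild-type HSC (8.51 ± 0.25), NFAT5-deficient MPP (7.52 ± 0.33) and wild-type MPP (7.38 ± 0.34; SD, n = 3 each). The neighbours of 1 population overlapped in their arrays, and wild-type HSC and NFAT5-deficient MPP did not.

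Averaged over the genotypes, Mycn was higher in HSC than in MPP by 1.37 on the log2 scale (SE 0.24, 95% CI 0.85 to 1.89), a ratio of 2.58, with an adjusted p of 0.0316 by limma over all genes. It was the only member called, 1 of 9, in a comparison that called 119 genes, 0.61% of those tested, with 0.298% called higher in HSC. Non-overlap of all HSC and all MPP arrays was likewise found for 1 of 9 members, against 1.33% of all genes. Within the genotypes the difference was 1.61 in NFAT5-deficient cells (SE 0.33, adjusted p = 0.143 by limma) and 1.13 in wild-type cells (SE 0.33, adjusted p = 0.324 by limma). No member was called within a genotype (0 of 9 each), where limma called 0.21% of genes in NFAT5-deficient cells and 0.164% in wild-type cells. At an unadjusted p under 0.05 the members counted 2 of 9 in NFAT5-deficient cells, against 7.9% of all genes, 3 of 9 in wild-type cells, against 8.9%, and 2 of 9 in the average, against 12.2%.

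The averaged Mycn call rested on many arrays. It was lost, at adjusted p between 0.0514 and 0.0982 by limma, when wild-type HSC array 66, 67 or 75, NFAT5-deficient MPP array 64 or 76, or wild-type MPP array 66 or 75 was left out, and it held without each of the other 5 arrays. It was also lost with the array number, shared by an HSC and an MPP array, as a fixed block (adjusted p = 0.0784 by limma). Leaving out wild-type HSC arrays 66 and 67 together, which had raised neutrophil genes, gave 1.25 with an adjusted p of 0.139 by limma. The difference itself stayed between 1.20 and 1.47 whichever array was left out. Each array reports a sorted population in bulk, so fewer cells that express a gene and less of its RNA per cell cannot be told apart.

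The stretch before the Mycn start site is shown because Mycn is the member the comparison turns on. It is the RefSeq promoter window on GRCm38.p6, chr12:12941787-12942086, minus strand, from 250 bases before to 50 bases after the start, written 5′ to 3′ along the gene. Capitals mark every match, on either strand, to the E2F words TTTGGCGC and TTTCGCGC and to TGGAAA, the core shared by binding sites of NFAT proteins including NFAT5.
Mycn: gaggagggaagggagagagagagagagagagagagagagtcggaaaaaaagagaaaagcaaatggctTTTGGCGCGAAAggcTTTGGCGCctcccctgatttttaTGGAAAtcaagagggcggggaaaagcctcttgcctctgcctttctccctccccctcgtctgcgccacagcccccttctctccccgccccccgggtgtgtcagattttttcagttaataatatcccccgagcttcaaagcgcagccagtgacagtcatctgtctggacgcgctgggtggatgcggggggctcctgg
The E2F matches began at -183, -179 and -168 from the start, with the first pair overlapping, and such a match occurs in 0.813% of the 32851 windows of this length. The TGGAAA match began at -145, and 21.4% of all windows hold that core. The Mycn window held no CACGTG. These letters are a description of the window and not evidence of binding.

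Myc, which encodes c-MYC itself, ran the other way in size without passing the test. Its log2 intensity was 9.24, 8.33 and 8.06 in NFAT5-deficient HSC arrays 64, 70 and 76, against 9.53, 9.83 and 9.48 in NFAT5-deficient MPP. Wild-type HSC arrays 66, 67 and 75 gave 9.27, 8.10 and 8.51, against 9.26, 9.31 and 9.89 in wild-type MPP. The NFAT5-deficient groups did not overlap, while in wild-type cells HSC array 66 lay just above MPP array 66. HSC array 64 of the NFAT5-deficient group and HSC array 66 of the wild-type group were well above the other HSC arrays and near the MPP level.

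The averaged HSC minus MPP difference of Myc was -0.97 (SE 0.26, 95% CI -1.55 to -0.38), a ratio of 0.512, with an unadjusted p of 0.00405 and an adjusted p of 0.183 by limma. Within NFAT5-deficient cells it was -1.07 (SE 0.37, adjusted p = 0.483 by limma) and within wild-type cells -0.86 (SE 0.37, adjusted p = 0.546 by limma). By group mean, NFAT5-deficient MPP (9.61 ± 0.19) and wild-type MPP (9.49 ± 0.35) came above wild-type HSC (8.63 ± 0.59) and NFAT5-deficient HSC (8.54 ± 0.62; SD, n = 3 each). The genotypes overlapped within each population, and the only neighbours in this order from different populations, wild-type MPP and wild-type HSC, overlapped at array 66. A list of cycling genes had values on the same side as Myc. All 9 of its 9 measured genes (of 10 listed) had a negative averaged HSC minus MPP difference, with a median of -0.52 and 0 called. Of all genes, 36.6% were negative and 0.61% were called, with a median of 0.06. Its mean log2 level was 9.65, 8.99 and 9.22 in NFAT5-deficient HSC arrays 64, 70 and 76, against 9.58 to 9.94 in NFAT5-deficient MPP. On wild-type HSC arrays 66, 67 and 75 it was 9.30, 9.33 and 9.41, against 9.73 to 9.82 in wild-type MPP. Array 66, the highest wild-type HSC array for Myc, was the lowest of its group for this list. Array 64, the highest NFAT5-deficient HSC array for Myc, was the highest of its group for this list. The part of cell cycling in the Myc values was not tested.

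**Figure D1:**
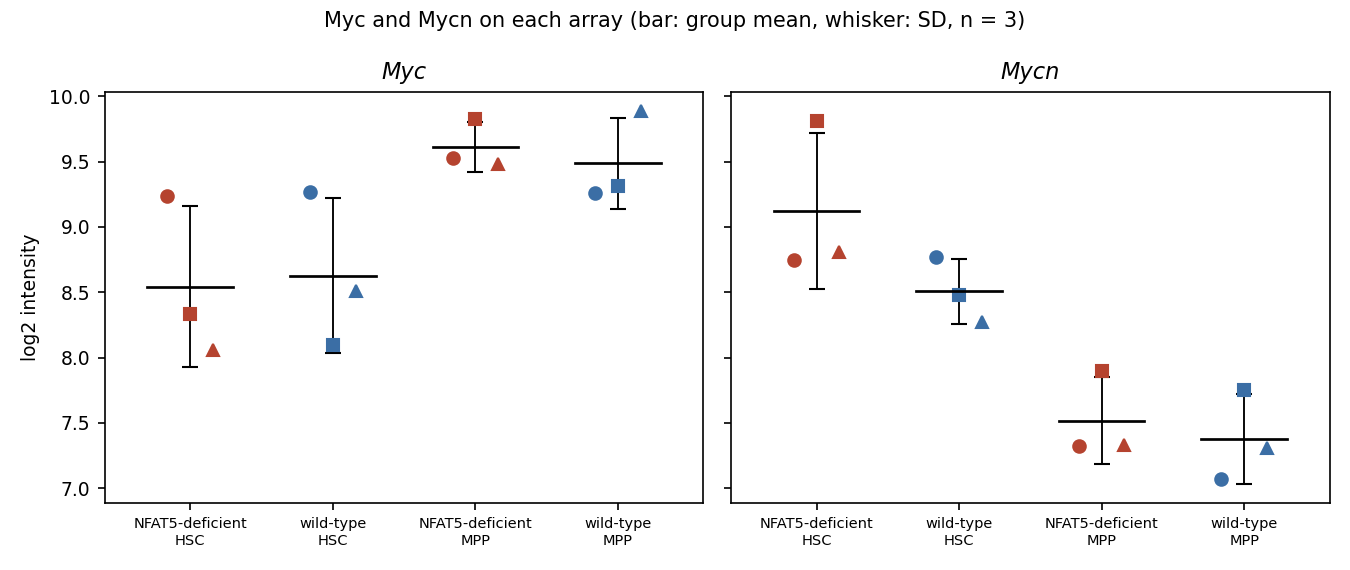
Log2 intensity of Myc (left) and Mycn (right) on each of the 12 arrays, by group, with NFAT5-deficient arrays in red and wild-type arrays in blue. Circles, squares and triangles are arrays 64, 70 and 76 (NFAT5-deficient) or 66, 67 and 75 (wild-type), bars are group means and whiskers are SD (n = 3). All HSC arrays lie above all MPP arrays for Mycn, while for Myc 1 HSC array of each genotype lies above 9.0 with the MPP arrays between 9.26 and 9.89.

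Max, the obligate partner of MYC and MYCN and a partner of the MXD proteins, stayed within a narrow band. It ranged from 10.23 to 10.58 in NFAT5-deficient HSC, from 10.14 to 10.38 in wild-type HSC, from 10.33 to 10.53 in NFAT5-deficient MPP and from 10.09 to 10.57 in wild-type MPP. The averaged HSC minus MPP difference was -0.01, with a 95% CI of -0.27 to 0.25. All 4 groups overlapped. The residual SD of Max around its group means was 0.17, at percentile 25.1 of all genes, against a median of 0.25.

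Mlx, the partner shared by some MXD proteins and the Mondo factors, was 7.02, 7.19 and 7.10 in NFAT5-deficient HSC, against 8.32, 7.39 and 7.95 in NFAT5-deficient MPP. In wild-type cells it was 7.12, 7.47 and 7.25 in HSC, against 8.78, 8.38 and 6.56 in MPP. The NFAT5-deficient groups did not overlap, and in wild-type cells MPP array 75, the lowest of all 12, put MPP on both sides of HSC. The averaged HSC minus MPP difference was -0.71 (SE 0.34, adjusted p = 0.438 by limma), and within NFAT5-deficient cells it was -0.79 (SE 0.48, adjusted p = 0.724 by limma). Mnt, a broadly expressed repressor that pairs with MAX or MLX, ranged from 7.06 to 7.79 in NFAT5-deficient HSC, 7.29 to 8.10 in wild-type HSC, 7.23 to 7.69 in NFAT5-deficient MPP and 7.12 to 8.33 in wild-type MPP, with all groups overlapping. Its averaged HSC minus MPP difference was -0.18 (SE 0.26).

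Among the MXD genes, Mxd3, a repressor linked to the S phase of dividing cells, was the member whose wild-type groups did not overlap. It read 6.40, 6.47 and 6.31 in wild-type HSC arrays 66, 67 and 75, against 5.84, 6.11 and 5.99 in wild-type MPP. In NFAT5-deficient cells it read 6.03, 5.88 and 6.01 in HSC, against 6.17, 6.12 and 5.64 in MPP. Wild-type HSC thus stood above the other 3 groups, which overlapped each other. The HSC minus MPP difference in wild-type cells was 0.42 (SE 0.15, unadjusted p = 0.0184, adjusted p = 0.454 by limma), and averaged over genotypes it was 0.21 (SE 0.11, adjusted p = 0.466 by limma). Its mean level over the 12 arrays lay at percentile 38.1 of all genes, and no detection calls were used here to say how far above background that is.

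The averaged HSC minus MPP differences of the other antagonists were smaller than their errors. Mxd1, which replaces MYC on MAX as myeloid cells mature, had 0.09 (SE 0.41), Mxd4 had -0.03 (SE 0.12) and Mxi1 had 0.20 (SE 0.56), and none passed the test. For Mxd1 it was 0.82 without wild-type HSC arrays 66 and 67, which left only array 75, with the highest Mxd1 value (8.35), in that group. Counting groups that did not overlap, the HSC against MPP comparison held 3 of 9 members in NFAT5-deficient cells, Mycn higher and Myc and Mlx lower in HSC, against 16.9% of all genes. In wild-type cells it held 2 of 9, Mycn and Mxd3, both higher in HSC, against 12.3% of all genes. The median averaged difference of the 9 members was -0.01, against 0.06 for all genes.

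The CACGTG E-box to which the network's own heterodimers bind was looked for in the RefSeq windows of the members, since several of these genes encode those proteins. A window was found for 8 of the 9 members, and the Mxi1 gene has several start sites, giving 10 windows. The E-box was present in 4 of the 10 member windows, those of Max, Mxd4, Mnt and Mlx, and in 7.15% of all 32851 windows. Such a match describes the window and is not evidence of binding. The 40 bases around each are shown with the E-box in capitals, 5′ to 3′ along the gene, on GRCm38.p6. The word reads the same on both strands.
Max: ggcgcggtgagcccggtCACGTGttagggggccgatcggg
Mxd4: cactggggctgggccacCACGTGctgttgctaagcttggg
Mnt: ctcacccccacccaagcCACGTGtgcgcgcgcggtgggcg
Mlx: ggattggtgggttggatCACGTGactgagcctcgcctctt
They lie at chr12:76962229-76962268 on the minus strand for Max, chr5:34187907-34187946 on the minus strand for Mxd4, chr11:74830784-74830823 on the plus strand for Mnt and chr11:101087233-101087272 on the plus strand for Mlx. The E-box began 3 bases before the start of Max (offset -3), at -219 for Mxd4, at -123 for Mnt and at -40 for Mlx. None of these 4 genes passed the test in any comparison.

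**Figure D2:**
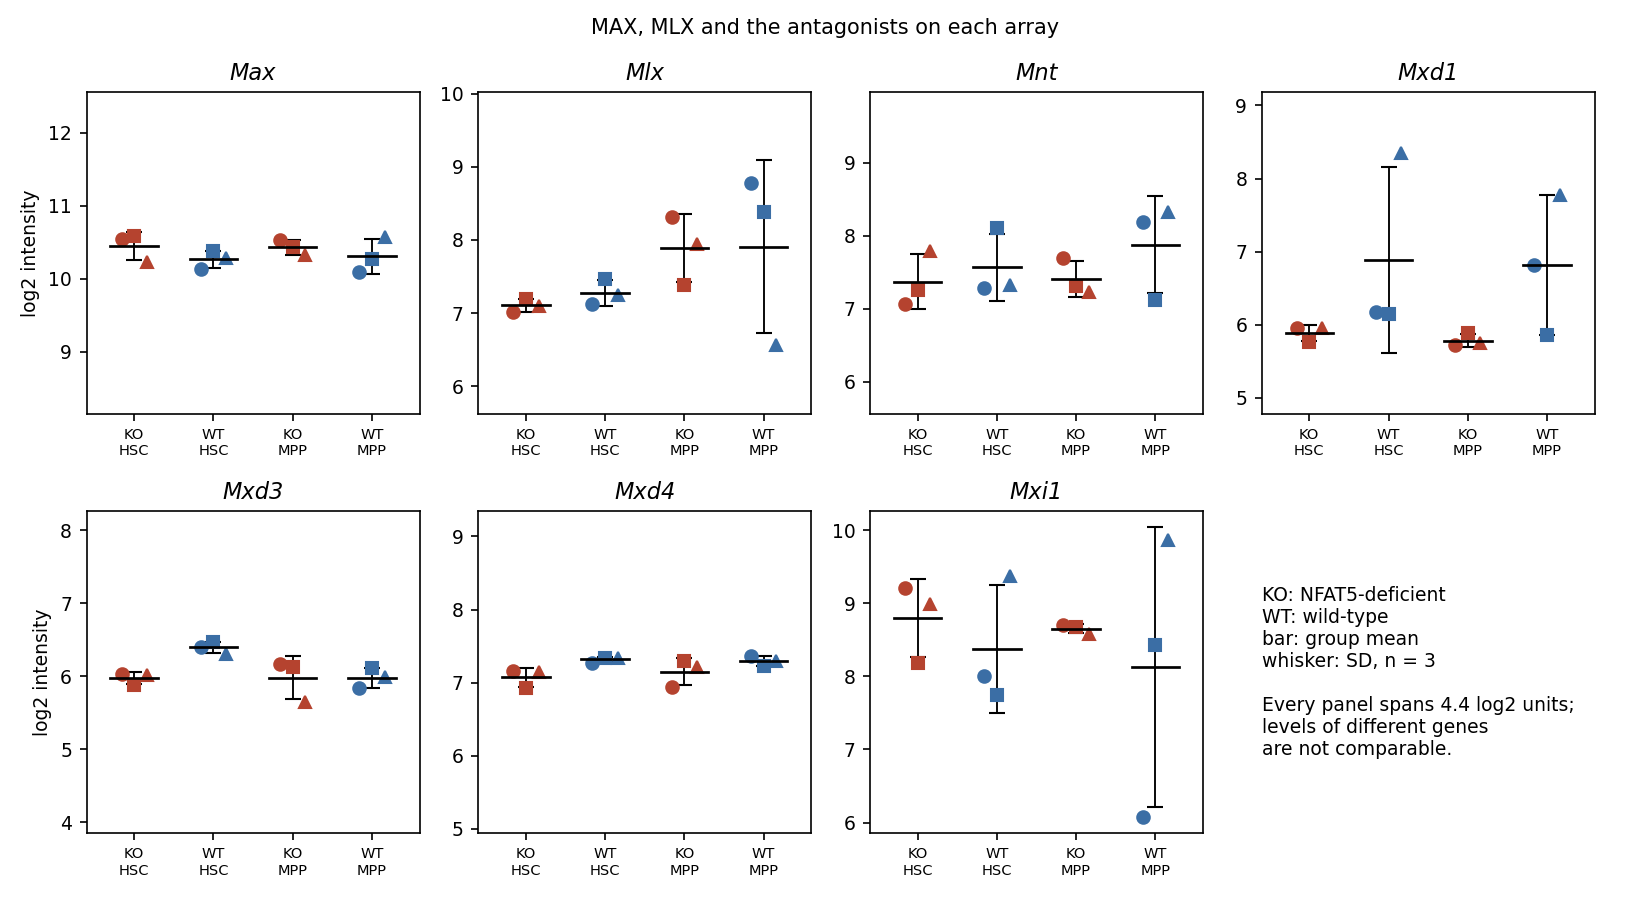
Log2 intensity of Max, Mlx, Mnt, Mxd1, Mxd3, Mxd4 and Mxi1 on each array, with NFAT5-deficient (KO, red) left of wild-type (WT, blue) in each population, bars for group means and whiskers for SD (n = 3). Every panel spans the same number of log2 units, so the narrow band of Max and Mxd4 can be seen beside the spread of Mxd1 and Mxi1, whose highest arrays are the wild-type ones numbered 75 (triangles).

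The genotype comparison asks whether loss of NFAT5 goes with a change of the network in either population. Limma called 0 of 9 members in HSC, in MPP and in the average over populations. Over all genes it called 0 (0%) in HSC, 1 (0.00513%) in MPP and 0 (0%) in the average, while 1205 (6.18%), 1043 (5.35%) and 1386 genes (7.11%) had an unadjusted p under 0.05 there. Of the members, 1 in HSC, 0 in MPP and 1 in the average had an unadjusted p under 0.05. In HSC, 3 of 9 members had groups that did not overlap, against 10.2% of all genes. These were Mxd1, Mxd3 and Mxd4, all lower in NFAT5-deficient HSC, where 6.61% of all genes lay lower without overlap. In MPP the count was 0 of 9, against 12.6% of all genes, and over both populations together it was 0 of 9, against 0.256%.

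Mxd1 had the most negative genotype difference of the 9 members and uneven wild-type arrays. It read 5.95, 5.76 and 5.96 in NFAT5-deficient HSC arrays 64, 70 and 76, against 6.17, 6.14 and 8.35 in wild-type HSC arrays 66, 67 and 75. In MPP it read 5.72, 5.88 and 5.75 in NFAT5-deficient cells, against 6.82, 5.86 and 7.78 in wild-type cells. The 6 NFAT5-deficient arrays lay within a narrow band, and the 2 wild-type arrays numbered 75 stood far above the rest. The mean of Mxd1 over the 12 arrays lay at percentile 44.9 of all genes. No detection calls were used to say how far above background the low arrays lie, so the narrow band may be near the floor. The averaged difference, NFAT5-deficient minus wild-type, was -1.02 (SE 0.41, 95% CI -1.91 to -0.12, unadjusted p = 0.0299, adjusted p = 0.69 by limma). In HSC it was -1.00 (SE 0.57, adjusted p = 0.862 by limma) and in MPP -1.03 (SE 0.57, adjusted p = 0.896 by limma).

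Leaving out both wild-type arrays 75, an alternative chosen after the values were seen, moved the averaged Mxd1 difference to -0.41 (adjusted p = 0.739 by limma). Leaving out wild-type HSC array 75 alone gave -0.65, and wild-type MPP array 75 alone gave -0.77. The difference within HSC was then -0.27 without HSC array 75 and that within MPP -0.55 without MPP array 75. Without wild-type HSC arrays 66 and 67 the averaged difference was -1.75 and that in HSC -2.46. Those 2 values rest on array 75 as the only wild-type HSC array left. Values of the mature neutrophil list are set beside these, and its part in the Mxd1 values was not tested. Wild-type arrays 75, the highest for Mxd1, had the lowest mean of the neutrophil list among wild-type arrays, 5.52 in HSC and 5.96 in MPP, with S100a8 at 4.47 and 5.22 on them. Wild-type MPP array 75 did read 7.50 for Retnlg, another neutrophil gene, which lay between 4.76 and 6.53 on the other 11 arrays, and wild-type HSC array 75 read 5.32 for Mmp8, which was 6.29 on wild-type HSC array 67 and 3.78 to 4.91 on the rest.

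Mxd3 and Mxd4 differed between the genotypes by less. Mxd3 averaged 5.97 ± 0.09 in NFAT5-deficient HSC and 6.39 ± 0.08 in wild-type HSC (SD, n = 3 each), a difference of -0.42 (SE 0.15, 95% CI -0.75 to -0.09, unadjusted p = 0.0173, adjusted p = 0.779 by limma). In MPP it averaged 5.98 in both genotypes. Mxd4, a repressor associated with resting and differentiated cells, read 7.16, 6.92 and 7.14 in NFAT5-deficient HSC, against 7.27, 7.34 and 7.34 in wild-type HSC, a difference of -0.24 (SE 0.17, adjusted p = 0.887 by limma). The HSC groups did not overlap for Mxd4, and its MPP groups did, with 6.94 to 7.29 in NFAT5-deficient MPP and 7.23 to 7.37 in wild-type MPP. Averaged over the populations, the differences were -0.21 for Mxd3 (SE 0.11, adjusted p = 0.71 by limma) and -0.20 for Mxd4 (SE 0.12, adjusted p = 0.722 by limma).

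Mxi1, a MAX partner that antagonises MYC in many tissues, had the widest spread of the 9. It read 9.21, 8.19 and 8.99 in NFAT5-deficient HSC, against 8.0, 7.75 and 9.37 in wild-type HSC. In MPP it read 8.70, 8.67 and 8.58 in NFAT5-deficient cells, against 6.08, 8.43 and 9.87 in wild-type cells. The lowest and the highest of the 12 values were thus both wild-type MPP arrays, 66 and 75. Its averaged genotype difference was 0.47 (SE 0.56, 95% CI -0.76 to 1.71). It changed sign, to -0.03, without wild-type HSC arrays 66 and 67, which left array 75 alone in that group. The residual SD was 1.09, at percentile 96.1 of all genes.

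The MYC genes themselves showed no genotype difference that passed the test. Mycn was 0.62 higher in NFAT5-deficient than in wild-type HSC (SE 0.33, adjusted p = 0.852 by limma), and by 0.28 once NFAT5-deficient HSC array 70, the highest at 9.81, was left out. In MPP the difference was 0.14 (SE 0.33, adjusted p = 0.963 by limma). Its averaged genotype difference was 0.38 (SE 0.24, 95% CI -0.14 to 0.90, adjusted p = 0.722 by limma). For Myc the averaged difference was 0.02 (SE 0.26, 95% CI -0.56 to 0.61, adjusted p = 0.986 by limma). The averaged differences of the remaining members were 0.15 for Max (SE 0.12), -0.34 for Mnt (SE 0.26) and -0.10 for Mlx (SE 0.34). The median over the 9 members was -0.10, against -0.06 for all genes.

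**Figure D3:**
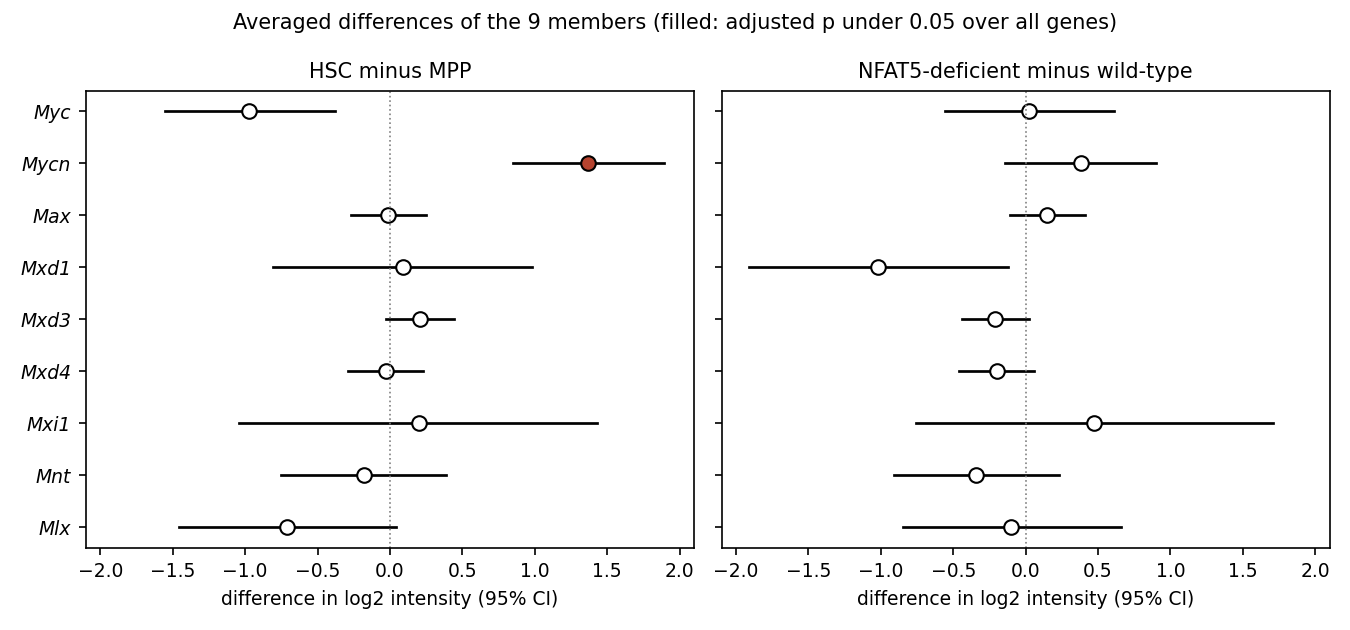
Averaged differences in log2 intensity of the 9 members with 95% confidence intervals, HSC minus MPP (left) and NFAT5-deficient minus wild-type (right), from the limma fit over all 12 arrays. The filled point marks the single call, Mycn at 1.37 in HSC minus MPP; the intervals of Mxi1 and Mxd1 are the widest.

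Whether the genotype difference itself differed between HSC and MPP was tested as an interaction, the difference in HSC minus that in MPP. Limma called 0 of 9 members and 0 of all genes (0%), with 0 members and 817 genes (4.19%) at an unadjusted p under 0.05. Mycn had an interaction of 0.48 (SE 0.47), Myc of -0.21 (SE 0.53) and Mxd3 of -0.42 (SE 0.21), each with an adjusted p of 0.999 by limma. Without NFAT5-deficient HSC array 70 the Mycn interaction was 0.13. The separation of Mxd3 in HSC and its absence in MPP is thus not shown to be a difference between the populations.

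The 4 further genes of the wider network were measured as well, and limma called 0 of 4 in every comparison, where it called between 0% and 0.61% of all genes. Mga, a large MAX-binding repressor found in a variant Polycomb complex, had the steadiest values of all network genes, between 11.48 and 11.70 on the 12 arrays, with a residual SD of 0.06. It read 11.66, 11.63 and 11.62 in NFAT5-deficient MPP, against 11.55, 11.53 and 11.48 in wild-type MPP, without overlap, as did 12.6% of all genes in either direction. Its averaged genotype difference was 0.11 (SE 0.05, adjusted p = 0.71 by limma). Mycl, the third MYC paralogue, lay between 5.84 and 6.71, with an averaged HSC minus MPP difference of -0.03. Mlxip, which encodes MondoA, lay between 6.29 and 8.43, and Mlxipl, which encodes ChREBP, between 5.30 and 5.92, each with an averaged HSC minus MPP difference of 0.18.

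Genes around the network were followed in lists of textbook MYC targets and partners. In the averaged HSC minus MPP comparison, limma called no member of any of these 8 lists, where it called 0.61% of all genes. Genes of ribosome biogenesis had a median difference of -0.14, with 12 of 17 measured genes negative, where 36.6% of all genes were negative and the median of all genes was 0.06. The members with the smallest p were Ncl (-0.10), encoding nucleolin, and Nolc1 (-0.34), a nucleolar phosphoprotein. Metabolic targets had a median of -0.34, with 11 of 15 negative. Among them Tfrc, the transferrin receptor, had -1.10 (SE 0.28, adjusted p = 0.152 by limma) and Hspd1, the mitochondrial chaperonin, -0.53 (adjusted p = 0.16 by limma).

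All 4 measured translation factors were negative, with a median of -0.28, including Eif4a1 (-0.45), the helicase of the cap-binding complex, and Eif3b (-0.40). Within the genotypes, 4 of 4 were negative in NFAT5-deficient cells (median -0.34) and 2 of 4 in wild-type cells (median -0.08). Eif4a1 averaged 10.23 in NFAT5-deficient HSC and 11.17 in NFAT5-deficient MPP, a difference of -0.94 (adjusted p = 0.0727 by limma), while wild-type HSC averaged 10.81 and wild-type MPP 10.77. Its interaction was -0.98 (SE 0.24, unadjusted p = 0.00207, adjusted p = 0.999 by limma). Cell cycle targets had a median of -0.25, with 11 of 15 negative. Mcm4, a subunit of the replicative helicase, had -1.06 (adjusted p = 0.124 by limma), whereas Ccnd2, encoding cyclin D2, had 0.66 (adjusted p = 0.11 by limma). Cofactors of MYC and MXD proteins had a median of -0.10, with 7 of 13 negative, and the smallest p belonged to Ruvbl2 (-0.55), an ATPase of chromatin remodelling complexes, and the deacetylase gene Hdac2 (-0.25). Regulators of MYC stability had a median of -0.06, with 5 of 7 negative. Cip2a, whose product protects MYC from dephosphorylation, had -0.86 and Usp28, a deubiquitinase of MYC, had -0.17.

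Genes that MYC represses had a median of 0.08, with 3 of 10 negative. They were led by opposite values, -1.08 for Cdkn1a (adjusted p = 0.11 by limma), encoding the cell cycle inhibitor p21, and 0.90 for Ndrg2. The 4 targets of MLX and MondoA were all positive, as were 63.4% of all genes, with a median of 0.41. Among them were Klf10 (0.48), Txnip (0.34), which encodes a brake on glucose uptake, and Pklr, at only 0.02. Within wild-type cells 3 of the 4 were positive. The cycling list, with its 9 of 9 negative differences, ran beside the negative medians of the target lists, and its part in them was not tested.

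**Figure D4:**
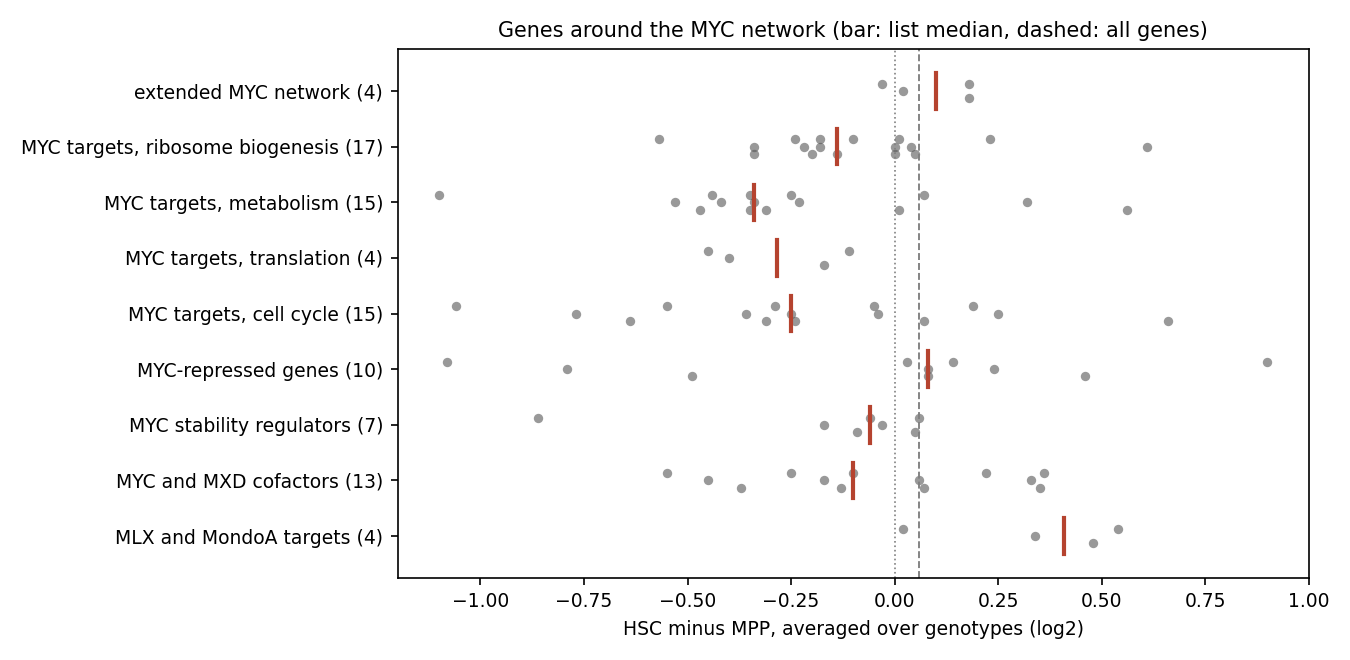
Averaged HSC minus MPP difference (log2) of each measured gene in the wider network and the 8 lists of MYC targets and partners, with the number of measured genes in brackets. Red bars are list medians and the dashed line is the median of all genes, 0.06; the medians run from -0.34 for metabolic targets to 0.41 for MLX and MondoA targets, and no gene shown passed the test.

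In the averaged genotype comparison, limma likewise called no member of these lists. The list medians, NFAT5-deficient minus wild-type, were 0.05 for ribosome biogenesis, 0.09 for metabolism, 0.06 for translation, 0.11 for the cell cycle, -0.11 for repressed genes, 0.16 for stability regulators, -0.01 for cofactors and 0.25 for MLX and MondoA targets, against -0.06 for all genes. The smallest p-values belonged to Hk2, encoding the glycolytic enzyme hexokinase, with 0.71 (SE 0.21, adjusted p = 0.656 by limma), to the nucleolar helicase gene Ddx21 with 0.52, and to Mcm5 with 0.42. Hk2 averaged 6.64 in NFAT5-deficient MPP and 5.30 in wild-type MPP, a difference of 1.33 (adjusted p = 0.699 by limma), against 5.78 in NFAT5-deficient HSC and 5.70 in wild-type HSC, with an interaction of -1.25 (unadjusted p = 0.0126, adjusted p = 0.999 by limma). Npm1 had 0.09, Hspd1 0.32, Eif5a 0.32, Eif3b 0.20 and E2f1 -0.41. Among repressed genes Cdh2 had -0.24 and Itgb1 -0.25. Aurka had 0.36, Gsk3b 0.22, Ruvbl1 0.59 and Ep400 0.60, while Txnip had 0.36 and Pklr -0.28.

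Genes whose log2 values ran most like those of Mycn and Myc over the 12 arrays were ranked by Pearson r among 12470 genes with a mean of at least 6. The arrays fall into 2 populations, so these values can follow the HSC to MPP contrast as well as the spread within a population. The part of each was not tested, and the values carry no p. For Mycn the highest were Clca3a1 (0.92), Slfn2 (0.92), Hacd4 (0.90), Pdzk1ip1 (0.90) and Plxdc2 (0.89), and the lowest were Tespa1 (-0.92), Uvrag (-0.92) and Mc5r (-0.91). Pdzk1ip1, one of the listed HSC markers, averaged 10.03 in NFAT5-deficient HSC and 9.95 in wild-type HSC, against 7.62 in NFAT5-deficient MPP and 6.73 in wild-type MPP. For Myc the highest were Cks1b (0.93), Psmc6 (0.88), Bex6 (0.88), Irf2bp2 (0.87) and Gm3317 (0.87), and the lowest were App (-0.90), Mtss2 (-0.89) and Ceacam10 (-0.87). Cks1b, a cyclin-dependent kinase subunit on the list of cell cycle targets, averaged 10.15 in NFAT5-deficient HSC and 10.24 in wild-type HSC, against 10.82 in NFAT5-deficient MPP and 11.11 in wild-type MPP.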

How the data were processed

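The values deposited by the authors are log2 intensities, given for each probe set on each array. The tools RMA and limma are named, per the submitters' processing notes, with no version or role. The log2 scale was read from the values, which ran from 2.51 to 13.28, with array medians between 6.4 and 6.53. Of 22142 probe sets, 19527 carried a single symbol from the platform annotation, and the 2615 without one were left out (0 carried several). For the 33 genes with several probe sets, the brightest on average was kept, leaving 19494 genes. No other filter was applied, and all 9 members passed a mean of 6, used as an alternative. Detection calls, scan dates and batches were not analysed here. The number of arrays limits the precision.

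Limma 3.58.1 in R 4.3.3 (lmFit, eBayes with an intensity trend) fitted the 12 arrays with 1 mean per group (4 groups). Benjamini-Hochberg adjustment ran over all genes, and calls needed an adjusted p under 0.05. The fit was tested on simulated data with planted changes larger than any member difference. That test does not show how well differences of the members' size are recovered. The members, lists and tests were chosen with earlier results of these data known. Named were all members, the 4 wider network genes, of each list up to 4 called genes or else the 2 with the smallest p in the averaged comparisons, and for Myc and Mycn the 5 most and 3 least similar genes. Retnlg, S100a8 and Mmp8 were named after their values were seen. Sequences come from RefSeq promoter windows on GRCm38.p6. Drawings used Python 3.11.15 and matplotlib 3.10.9.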

Additional observations from a re-analysis of the deposited data

How the results depend on the processing

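The 12 arrays, 3 a group, limit what could be seen, and no depth or batch could be analysed here. Of 63 member differences, 30 changed sign in at least 1 alternative, and 0 of these had been called. In the averaged HSC minus MPP comparison the count of members called, 1 (Mycn), became 0 in 10 of the 23 alternatives to the Mycn fit and ranged from 0 to 1 when arrays were left out in turn. It was 0 without wild-type HSC arrays 66 and 67 (which leaves 1 array there, assumed to vary like the other groups), without both wild-type arrays 75 (chosen after seeing the data, adjusted p = 0.116 by limma) and with the array number as a fixed replicate block. The Mycn difference stayed between 1.20 and 1.47, and its adjusted p lay between 0.023 and 0.139 in limma. In the 6 other comparisons no alternative called a member.

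The labels do not say whether an array number stands for 1 animal. Over all genes, deviations of HSC and MPP arrays of 1 number correlated between -0.01 and 0.06, and 5 of 12 arrays correlated best with their own number. Each array had only 3 arrays of the other population to match, so random matching would also give some such hits. The number therefore stayed an alternative. Some genes did run with it, such as Mxd1, highest on both wild-type arrays 75 (8.35 in HSC and 7.78 in MPP). The mean of the neutrophil list was higher on wild-type arrays 66 and 67 than on array 75 in both populations. Correlations over all genes thus do not show that arrays of 1 number are unrelated. With the fixed replicate block the Mycn difference was 1.37 with an adjusted p of 0.0784 by limma and 0 members were called. With a random block (correlation 0.05) 1 member was called.

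Several differences changed sign, none of them called. For HSC minus MPP, leaving out 1 array in turn gave -0.07 to 0.05 for Max, -0.28 to 0.33 for Mxd1, -0.08 to 0.01 for Mxd4 and -0.31 to 0.63 for Mxi1. Max was 0.04 with quantile normalization, and without both wild-type arrays 75 it was 0.05 and Mxd1 -0.04. Without wild-type HSC arrays 66 and 67, which left array 75 alone in that group, Mxd1 was 0.82. For NFAT5-deficient minus wild-type, the ranges were -0.15 to 0.18 for Myc, -0.04 to 0.91 for Mxi1, -0.43 to 0.12 for Mlx and, for Mycn in MPP, -0.05 to 0.33. Myc was -0.03 with quantile normalization and Mxi1 -0.03 without wild-type HSC arrays 66 and 67. The interaction ranged from -0.56 to 0.11 for Myc and from 0.13 to 0.67 for Mycn. The cause was not tested for any of these.

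Counts over all genes moved more. The other alternatives below include a looser cut in limma, an adjusted p under 0.1. It gave the upper ends of HSC minus MPP, 218 in the average, 62 in NFAT5-deficient and 72 in wild-type cells. It also gave the upper end of 7 for the genotype in MPP. The averaged HSC minus MPP comparison called 119 genes, 71 to 112 with an array left out and 52 to 218 in the other alternatives. The count was 41 (5 to 32, and 3 to 62) in NFAT5-deficient cells and 32 (11 to 30, and 5 to 72) in wild-type cells. For the genotype it was 0 (0 to 3, and 0 to 30) in HSC, 1 (0 to 4, and 0 to 7) in MPP, 0 (0 to 2, and 0 to 13) in the average and 0 (0 to 1, and 0 to 9) for the interaction.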

Other observations

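Mxi1 and Mlx, both wide in their spread, stood at opposite ends of some arrays. Wild-type MPP array 66 had the lowest Mxi1 (6.08) and the highest Mlx (8.78) of the 12 arrays, and wild-type MPP array 75 had the highest Mxi1 (9.87) and the lowest Mlx (6.56). Over the 12 arrays the Pearson correlation of these genes was -0.67, and that of Myc and Mycn was also -0.67. Both were the most negative of all pairwise correlations among the members and the wider network genes. These are descriptions over arrays of 2 populations, which share 1 normalization.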
